A study of Drosophila melanogaster with 6 samples.

Results

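Peaks of Suppressor of Hairless, Su(H), were examined at the genes that encode 3 core proteins of its own pathway: the receptor Notch (gene N), the ligand Delta (gene Dl) and Su(H) itself. Peaks were taken where their midpoint lay in X 3025000 to 3070000 (N), 3R 15135000 to 15180000 (Dl) or 2L 15034000 to 15048000 (Su(H)), all on FlyBase release 5. This gave 6 of the 4403 peaks in the list, with 2 at N, 4 at Dl and 0 at Su(H). Among all windows of the same length on the same arm, 26.2% on X, 39.4% on 3R and 17.8% on 2L held at least 1 peak. How far each window reaches beyond its gene was not measured, because no release 5 gene annotation was used here. A peak is therefore placed in a window, not in an exon, an intron or a promoter.

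The series holds 3 libraries of Su(H) ChIP DNA and 3 of input DNA, made from Drosophila melanogaster embryos of the strain labelled Y cn bw sp. All 6 libraries share 1 genotype, in which the labels give y[1] with oc[R3.2], then Gr22b[1] and Gr22d[1] alongside cn[1], CG33964[R4.2], bw[1] and sp[1], and finally LysC[1] and lab[R4.2] together with MstProx[1], GstD5[1] and Rh6[1]. The stage is labelled embryo 0-8 and the sex unknown, while the protocol text speaks of a laying of 8-16 hours. ChIP used a rabbit polyclonal antibody raised against amino acids 259 to 594 of Su(H), on whole embryos fixed in 1.8% formaldehyde for 15 min. A peak present in some tissues only cannot be told apart from a weaker peak present in all of them. The single peak list names no library, so the values below have no replicate error, no test between ChIP and input libraries could be made, and the read depth behind them is unknown.

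In the Notch pathway, a ligand such as Delta on one cell binds the receptor Notch on its neighbour, and the intracellular part of Notch is cut free and moves to the nucleus. There it joins Su(H), the DNA-binding protein of the pathway, and the coactivator Mastermind at target genes. In the absence of the signal Su(H) binds the co-repressor Hairless. In the fly embryo the pathway is best known for lateral inhibition in the neuroectoderm, where it limits how many cells become neuroblasts. The Su(H) gene is also known to be activated by its own protein in the socket cells of adult sensory organs.

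At N, the receptor gene, a single strong peak stood out. It lay at X 3056091 to 3057171, 1081 bp wide, with a MACS score of 168.82 as deposited by the authors. Its score was the second of the 220 peaks of X, where only a peak at 11901181 to 11903793 scored higher (265.26) and the next lower one scored 81.97. Peaks at or above its score made up 0.909% of the X peaks (exact 95% binomial interval 0.11 to 3.25%, covering counting error only and treating peaks as independent). Over the 6 chromosome arms it ranked 13 of 2074, and over the whole list 14 of 4403. The score was 12.1 times the X median of 13.91. The scale of the score is not stated in the file or the labels, so this ratio describes the deposited numbers and not a degree of enrichment.

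By width the same N peak ranked lower, at 9 of 220 on X, and was 3.0 times the X median of 360.5 bp. It scored high for its width. The 6 X peaks within 10% of its width, itself included, had a median score of 19.33 and a minimum of 14.35, and none scored higher than it.

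The second N peak, at X 3063016 to 3063244, was weak and narrow. It had a score of 8.92 and a width of 229 bp, and ranked 202 of 220 on X by score and 200 by width. Between the N peaks lay 5844 bp without a peak. The strong peak held 95.0% of the summed score of the window and the weak one 5.02%. Together they covered 1310 bp, or 2.91% of the window.

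**Figure D1:**
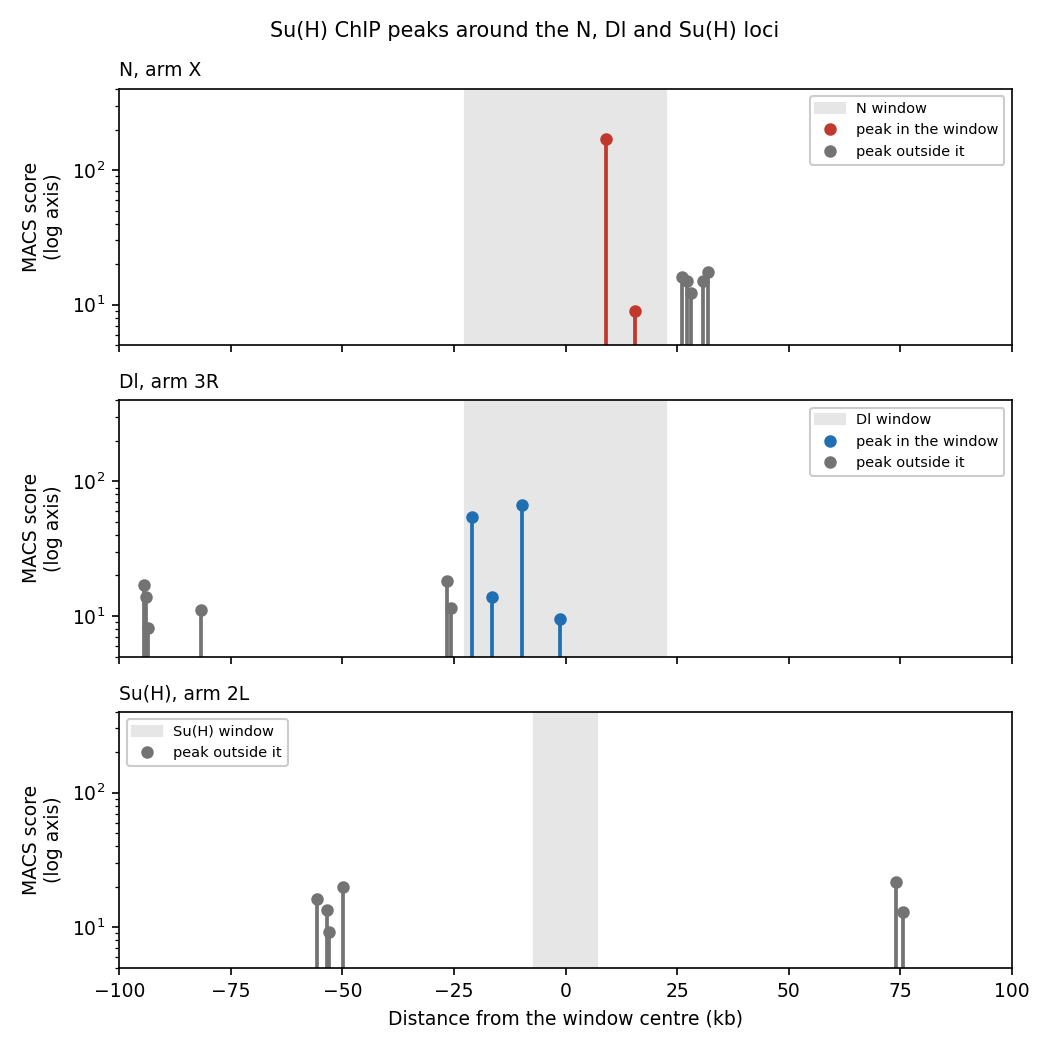
Su(H) ChIP peaks within 100 kb of the centre of the N, Dl and Su(H) windows (grey bands). The x axis is the distance from the window centre in kb, the y axis the deposited MACS score on a log axis, and each stem is 1 peak placed at its midpoint, coloured if it lies in the window. N has 1 peak of score 168.82 and 1 of 8.92, Dl has peaks of 54.27, 13.91, 67.17 and 9.46 on the left of its window, and the Su(H) window has none.

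The surroundings of the N peaks were uneven. To the left, no peak was called for 220079 bp before the strong peak, up to one at 2835774 to 2836011 with a score of 9.65. A gap of this length or longer made up 14.6% of the 219 gaps between X peaks, whose median was 36.0 kb. To the right, 10.14 kb past the weak peak and 3.39 kb outside the window, lay a run of 5 peaks between 3073386 and 3079687. These 5 peaks had scores of 12.2 to 17.36 and widths of 331 to 762 bp. Of the 149 runs into which the X peaks fall when gaps of up to 5 kb are bridged, 5 had 5 or more peaks and the median run had 1.0 peak. The peaks of that run were closer together than the 2 N peaks, and each scored above the weak N peak and far below the strong one.

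The window boundary decided whether this run counts with N. The last peak inside the right edge was the one of score 8.92, which ended 6.76 kb before it, and the first outside was the peak at 3073386 to 3073837 with a score of 16.18, 3.39 kb past it. In the RefSeq gene table, on Release 6 and used for gene order only, the genes that follow N are CG18508, Fcp3C, CG3939 and dnc, the cAMP phosphodiesterase gene dunce. The genes before N are CG4116 and rst, which encodes the cell adhesion protein Roughest. Which of these the run overlaps was not examined, since coordinates of the 2 releases were not joined.

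At Dl, the ligand gene, strong and lower peaks lay in the same window. The 4 peaks of its window began 1.32 kb from its left edge and spanned 20.03 kb, leaving the last 23.65 kb of the window empty. The strongest was at 3R 15147422 to 15148001, 580 bp wide, with a score of 67.17. The next was at 15136318 to 15136876, 559 bp wide, with a score of 54.27. Peaks of middling and low score lay beside them, at 15140788 to 15141226 (score 13.91, width 439 bp) and at 15156149 to 15156351 (score 9.46, width 203 bp).

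Along the window the strong Dl peaks were each followed by a lower one, the first by a peak close to the 3R median and the second by a weak one. By score the strong ones ranked 14 and 20 of the 505 peaks of 3R, and the others 248 and 439. Peaks at or above the strongest made up 2.77% of the 3R peaks (exact 95% binomial interval 1.52 to 4.61%), and peaks at or above the second 3.96% (2.44 to 6.05%). Both intervals have the limits given for that of the strong N peak. Against the 3R median score of 13.81, the strongest was 4.86 times as high, the second 3.93 times, the third 1.01 times and the weakest 0.685 times. The 4 peaks held 46.4%, 37.5%, 9.61% and 6.53% of the summed score in that order of score.

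Of the 13 peaks of 3R that scored above the strongest Dl peak, 7 belonged to the single most populous run of that arm, which holds 13 peaks. The 13 lay in 6 runs in all. Without the peaks of that run the strongest Dl peak ranked 7 of 492. The run was picked from this same list by its number of peaks, and leaving out peaks can only improve a rank. On X the same step left the strong N peak at 2 of 213. The strongest Dl peak was the highest of its own run of 1, and by their highest scores it ranked 7 of the 334 runs of 3R. The peak of 54.27 and the one of 13.91 belonged to a run of 4 peaks from 15130606 to 15141226, which ranked 13.

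**Figure D2:**
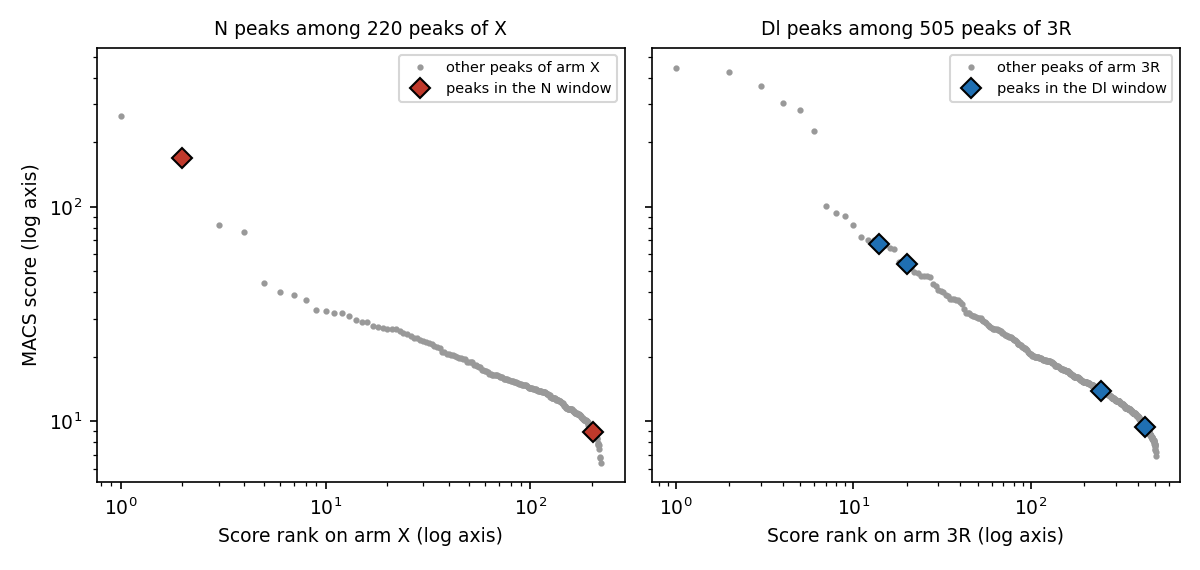
Deposited MACS score (y axis, log) against score rank (x axis, log) for the 220 peaks of X and the 505 peaks of 3R. Grey points are peaks elsewhere on the arm and diamonds the peaks of the N and Dl windows. The strong N peak is the second on X, and the Dl peaks take ranks 14, 20, 248 and 439 on 3R.

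In width the strong Dl peaks were less prominent than in score. They ranked 96 and 106 of 505 on 3R, at 1.66 and 1.6 times the arm's median width of 349.0 bp. Among the 44 peaks of 3R within 10% of the width of the strongest, the median score was 18.59, and 3 scored higher than it. Among the 49 peaks within 10% of the width of the second, the median was 17.61, and 4 scored higher. The lower Dl peaks did not stand out in this way: of the 64 and 57 peaks of like width, 41 and 38 scored higher than the peaks of 13.91 and 9.46.

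**Figure D3:**
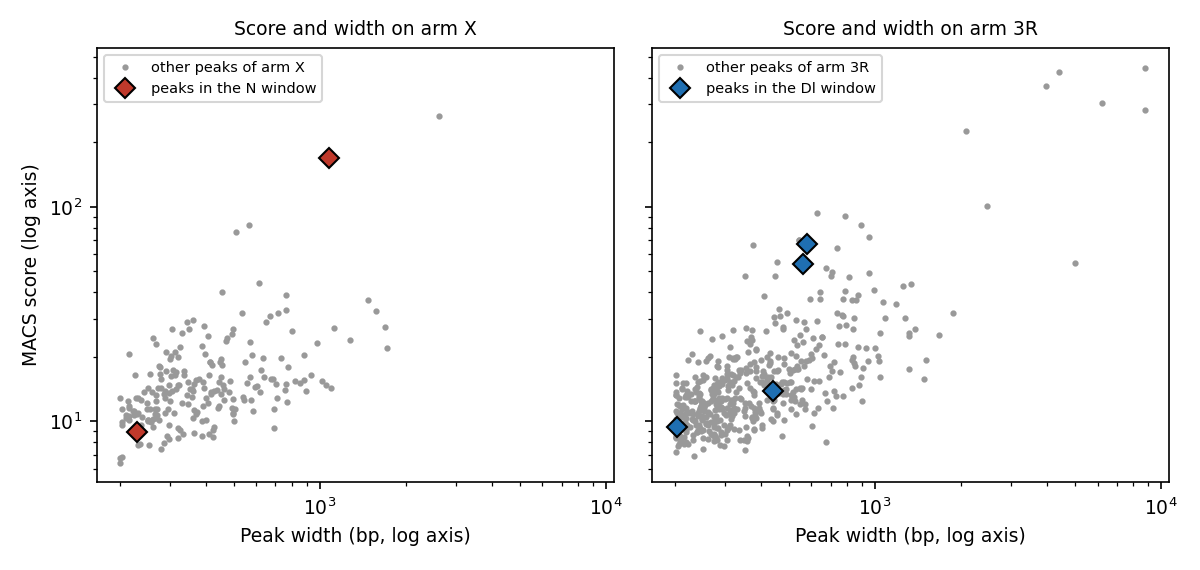
Deposited MACS score against peak width in bp, both on log axes, for arm X (left) and arm 3R (right). Grey points are peaks elsewhere on the arm and diamonds the peaks of the N and Dl windows. The strong N peak (168.82, 1081 bp) and the strong Dl peaks (67.17, 580 bp and 54.27, 559 bp) lie above most peaks of like width. The Dl peak of 13.91 lies near the middle of the 3R peaks, and the peaks of 8.92 at N and 9.46 at Dl among the narrow low-scoring ones.

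The Dl peaks were spaced by 3.91, 6.20 and 8.15 kb from left to right. To the left, 2.99 kb outside the window, lay a peak of score 11.54 at 15131702 to 15132006, and beside it one of score 18.1 at 15130606 to 15131456. To the right no peak followed for 173646 bp, a gap reached by 7.74% of the 504 gaps of 3R, whose median was 14.6 kb. In the gene order of the RefSeq table, where Dl is listed under the symbol Delta, the next gene on the lower side is CG44174 and on the higher side lncRNA:CR44175.

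At Su(H), the gene of the immunoprecipitated protein, no peak was called. The empty stretch around its window measured 123221 bp. It ran from a peak at 2L 14991055 to 14991427 with a score of 19.86, which ended 42.57 kb left of the window, to one at 15114649 to 15115502 with a score of 21.66, which began 66.65 kb to the right. The stretch ranked 51 of the 446 gaps of 2L, and 11.4% of them were as long or longer. A 45 kb window with the same centre, the length used for N and Dl, was also empty. In gene order the neighbours of Su(H) are CIAPIN1 and yellow-c on the lower side and ck, the myosin VIIA gene crinkled, on the higher side.

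An empty window of this length is common on 2L. When the arm was divided from its first peak into 1612 windows of 14 kb, 17.8% held at least 1 peak (exact 95% binomial interval 16.0 to 19.8%) and 82.2% held none. Among 501 windows of 45 kb, 39.9% held a peak. The absence of a peak at Su(H) is therefore what most windows of 2L show, and it means that no region passed the authors' calling threshold, which no source used here states.

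Occupied windows were the minority on the other arms as well. On X, 26.2% of 477 windows of 45 kb held at least 1 peak (22.3 to 30.4%), 9.64% held 2 or more as N does, and 0.419%, or 2 windows, held a peak scoring at least as high as the strong N peak. On 3R, 39.4% of 611 windows held at least 1 peak (35.5 to 43.4%), 5.89% held 4 or more as Dl does, and 1.31% held a peak as high as the strongest Dl peak. Windows with at least 2 peaks of score 54.27 or more made up 0.491% of 3R, or 3 windows. This last criterion was chosen after the scores were seen. The divided windows include those that overlap the loci themselves, so the strong N peak's own window is among the 2 of X. The window with both strong Dl peaks is likewise among the 3 of 3R, at a cut set by the lower of their scores. No test was made of 3 loci chosen by gene.

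**Figure D4:**
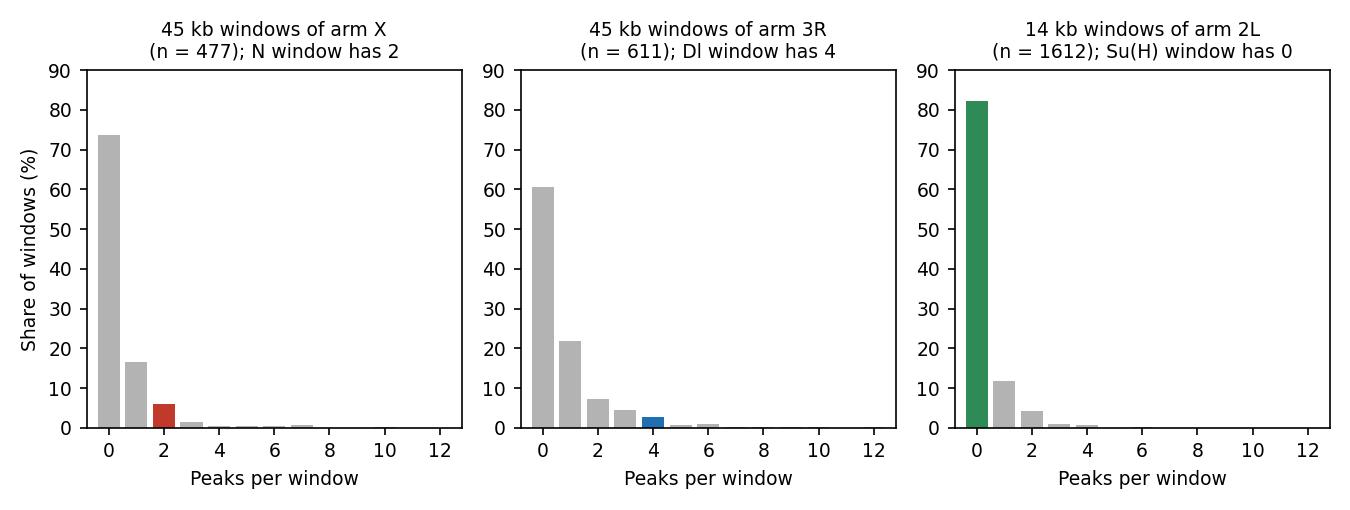
Share of windows in percent (y axis) by the number of peaks they hold (x axis), for X in 477 windows of 45 kb, 3R in 611 windows of 45 kb and 2L in 1612 windows of 14 kb. The coloured bar marks the number found at N (2), Dl (4) and Su(H) (0). Empty windows are the tallest bar on each arm.

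Peaks around the loci were also counted at larger distances. Within 50 kb on either side of the window centre there were 7 peaks at N, 6 at Dl and 1 at Su(H). Within 500 kb there were 10 peaks at N, 16 at Dl and 26 at Su(H), or 10.0, 16.0 and 26.0 per Mb. The arms as a whole carried 10.24 peaks per Mb on X, 18.34 on 3R and 19.8 on 2L, measured from their first to their last peak. Within 500 kb the surroundings of Su(H) thus held the most peaks of the 3 loci and those of N the fewest, while within 50 kb N had the most and Su(H) the fewest.

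Other genes of the pathway could not be compared in the same way. Of 21 other listed pathway genes, among them the ligand gene Ser, the ubiquitin ligase gene neur, the coactivator gene mam and the co-repressor genes H and gro, all were found in the Release 6 table. They lie on 3R (8 genes), 2L (5), 3L (4), 2R (3) and X (1). No peaks were assigned to them, as release 5 windows were at hand for N, Dl and Su(H) only.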

How the data were processed

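ChIP-seq peaks were analysed for 3 Su(H) ChIP and 3 input DNA libraries. The authors deposited 1 list with 1 score per peak, called the MACS score after its source column. Its coordinates are on FlyBase release 5, per the file headers. The submitters' processing notes name, without roles, BDGP5, MACS2, BWA and CASAVA (1.7.0.2 and 1.7.0.3). No source used here gives the calling threshold or says whether libraries were pooled, and the depth per library is unknown.

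Positions count from 1. Ranks are by score, ties sharing the better rank. Ranks, widths and gaps were computed in Python 3.11.15 with pandas 2.3.3, and exact binomial intervals in scipy 1.17.1. For background, each arm was divided from its first peak into windows of the locus's length. All 3 genes and every peak in their windows were named. The genes, windows and lists were chosen with earlier results of these data known. The planned motif search in promoters was not run, as no sequence was at hand.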

Additional observations from a re-analysis of the deposited data

How the results depend on the processing

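When any overlap with the window counted, or gaps of up to 1 kb were bridged, there were still 2 peaks at N, 4 at Dl and 0 at Su(H). Su(H) stayed at 0 in its 7 alternatives, 1 of them, the 45 kb window, added after the data were seen. These outcomes followed from the empty stretch already described and add no support to the absence. Narrowing and score cuts only remove peaks. The other settings did not reach the nearest peaks, 42.57 and 66.65 kb outside the window. Widening the windows by 10 kb on each side gave 7 peaks at N and 6 at Dl, and narrowing them by 5 kb gave 2 and 3. In the 50% of all peaks with the highest score (16.18 or more), and also in the 20% (26.42 or more), 1 peak was left at N and 2 at Dl. With the upper 50% of peaks, windows with a peak fell to 12.4% of X, 19.5% of 3R and 6.7% of 2L, since fewer peaks were counted. The cuts were set on the whole list of 4403 peaks, of which only 2074 lie on the 6 arms. Its median score of 16.18 is above the 13.47 of the arms. The upper 50% therefore keeps less than 50% of the peaks of X, 3R or 2L. The share of peaks at or above the strongest was 4.09% at N and 19.2% at Dl by width. By score it stayed between 0.318% and 1.34% at N and between 1.83% and 3.5% at Dl, ranking by runs included, which was added after the data were seen. Of 20 alternatives for the other 4 peaks, 8 fell outside the interval of the main value. Leaving out single libraries was not possible with 1 list. No paired analysis was possible because 1 list stands for all 6 libraries. The planned motif alternative was not run. At an unknown depth, an empty Su(H) window shows only that no peak was called there.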
